A study of Mus musculus with 12 samples.

Results

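Genes of sterol metabolism were followed over the day in the mouse prefrontal cortex, from the enzymes that build cholesterol to the proteins that sense, move and bind it. The list was drawn up by pathway role, with earlier results of these data known. It has 39 genes, of which 18 make cholesterol, 7 control its synthesis, 9 transport or turn it over and 5 bind oxysterols. Each gene was read by 1 probe set, the brightest over all arrays among those annotated to that gene alone. Such a probe set was found for 36 of the 39 genes, out of 18193 genes with a probe set of their own on the whole array, and all 36 were bright enough to be tested. Acat2, Soat1 and Nr1h2 had none in the annotation used and were not analysed here.

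Tissue came from C57BL/6J mice, obtained at 10 weeks of age and kept for some weeks before tissue was taken, with no mutation, drug or sleep deprivation, that lived in a cycle of 12 hours of light and 12 hours of dark with food at all times. Zeitgeber time (ZT) counts hours from lights on. Mice were taken at ZT3 and ZT9 in the light, when mice mostly rest, and at ZT15 and ZT21 in the dark, when they are mostly active, with 3 mice at each time and 1 mouse on each Affymetrix Mouse430_v2 array. The sex of the mice is not given in the sources used here, and the study asked which transcripts vary over this cycle.

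The brain makes its own cholesterol, because lipoproteins of the blood do not cross the blood-brain barrier. The mevalonate pathway turns acetyl-CoA into isoprenoids and squalene, squalene is closed to lanosterol, and lanosterol is trimmed to cholesterol. When membranes of the endoplasmic reticulum run low in sterol, SCAP carries the SREBP factors to the Golgi, where the site-1 and site-2 proteases release them to switch on these same enzymes, while the INSIG proteins hold them back when sterol is plentiful. Astrocytes export cholesterol on ApoE through ABC transporters, neurons take it up and oxidise the excess, and oxysterol-binding proteins carry sterols and phospholipids between membranes in contact.

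All values below are log2 intensities, so that a difference of 1 is a 2-fold change, and levels are compared only within a probe set. Markers of cortical neurons were bright, with Slc17a7 at a mean of 12.20 and Snap25 at 14.23, and so were those of astrocytes and myelin, with Slc1a2 at 13.71 and Mbp at 14.33. Striatal genes were also read, with Penk at 9.22 and Drd2 at 5.62, while of 6 choroid plexus markers only Ttr was bright enough to be tested. The choroid plexus markers were high on ZT9 replicate 3 and, less so, on ZT15 replicate 1. There Ttr read 14.82 and 14.18, against 9.22 to 12.40 on the other 10 arrays, and Kl read 8.12 and 5.68, against 2.46 to 3.80. In such bulk tissue fewer cells of a type and less RNA per cell cannot be told apart.

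On ZT9 replicate 1, ZT15 replicate 3 and ZT21 replicate 3 the 3′ minus 5′ signal of the β-actin control, a measure that rises with RNA degradation, was the highest of the 12 arrays (0.95, 0.84 and 0.88, against 0.66 to 0.79 on the other 9), and so was that of the Gapdh control. The other controls of this kind did not single out the 3 as a set. That of the transferrin receptor was the lowest of its time point on ZT9 replicate 1 (2.90) and ZT15 replicate 3 (2.35), and the highest on ZT21 replicate 3 (2.99). That of pyruvate carboxylase was the highest of the 12 arrays on ZT15 replicate 3 (3.83) and of its time point on ZT9 replicate 1 (3.52). It was higher on ZT21 replicate 1 (3.83) than on ZT21 replicate 3 (3.78). The 3 arrays also had the highest scores on the first principal component, which held 38.9% of the variance (33.75, 36.51 and 23.54), while ZT3 replicates 3 and 2 lay far out at its other end (−33.48 and −28.84). Results are given with and without these 3 arrays of high β-actin signal, and their part in the results was not tested beyond that. With them left out, 5815 of the 25000 probe sets passed the F-test, against 466 with all 12 arrays, and as they were picked with these values in view, the spread that is left may be understated.

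Upstream sequence is shown for 4 of the genes, because the promoters of the synthesis genes have a motif in common, which played no part in how the genes were chosen. These are RefSeq sequences on GRCm38.p6, read 5′ to 3′ on the plus strand, which is the strand of all 4 genes, and capitals mark CCAAT on either strand (ATTGG on the reverse), TCACNCCAC, a form of the sterol regulatory element bound by SREBP, and CACGTG, an E-box, which the SREBP and clock factors can bind. Each is a stretch of a longer window, cut to show these motifs. The stretch of Hmgcs1 has TCACNCCAC and 1 of the 4 CCAAT of its window, that of Mvk has 5 CCAAT, that of Idi1 has 2 and that of Insig1 has a CCAAT and an E-box.
Hmgcs1, chr13:119690201-119690350: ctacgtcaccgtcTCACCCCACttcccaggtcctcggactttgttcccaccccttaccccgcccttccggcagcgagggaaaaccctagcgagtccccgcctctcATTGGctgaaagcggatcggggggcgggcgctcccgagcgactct
Mvk, chr5:114444084-114444263: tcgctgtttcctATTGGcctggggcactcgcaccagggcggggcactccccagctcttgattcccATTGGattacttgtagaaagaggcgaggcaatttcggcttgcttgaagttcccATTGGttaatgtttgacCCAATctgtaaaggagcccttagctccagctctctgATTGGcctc
Idi1, chr13:8885546-8885605: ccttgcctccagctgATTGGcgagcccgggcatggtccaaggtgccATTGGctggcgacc
Insig1, chr5:28071187-28071326: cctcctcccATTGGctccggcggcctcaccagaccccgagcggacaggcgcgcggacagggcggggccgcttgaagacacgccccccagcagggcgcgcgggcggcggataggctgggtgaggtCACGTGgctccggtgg

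Windows that run from 250 bases before to 50 bases after the start of transcription were at hand for 29 of the 36 genes measured. CCAAT, the motif of the factor NF-Y, was present on either strand in all 14 windows of synthesis genes, against 41.1% of 27025 genes with such a window. It was in 4 of 7 windows of the SREBP control genes, 2 of 4 of the transport genes and 3 of 4 of the oxysterol-binding proteins. CACGTG was in 7 of the 29 windows, those of Dhcr7, Hsd17b7, Sc5d, Insig1, Scap, Abca1 and Osbpl8, against 8.09% of all genes. TCACNCCAC was in that of Hmgcs1 alone, against 1.44% of all genes. A match of letters is a description and no evidence of binding.

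Of the 36 sterol genes 3 were called as varying over the 4 time points by limma (moderated F-test, adjusted p under 0.20, the threshold of the study), namely Mvk, Fdps and Osbpl3. That is 8.33% of the genes, beside 1.86% of the 25000 probe sets tested. At an adjusted p of 0.05 Osbpl3 was the 1 member called (2.78%), beside 0.1% of all probe sets. The study itself places Osbpl3 near the head of its ranking of diurnal genes from these same arrays. As the list was drawn up with earlier results known, these shares are a description and no test. Before adjustment, 12 of the 36 (33.3%) had a p under 0.05, beside 15.3% of all probe sets. The calls of Mvk and Fdps were lost when any 1 of 8 arrays was left out (ZT3 replicates 1 to 3, ZT9 replicate 2, ZT15 replicates 1 and 2, and ZT21 replicates 1 and 2), with adjusted p up to 0.428 for each. Osbpl3 passed in all 12 such fits. The count over the 36 was 1 in those 8 fits, 5 without ZT15 replicate 3, 7 without ZT9 replicate 3 or ZT21 replicate 3, 9 without ZT9 replicate 1, and 12 without the 3 arrays of high β-actin signal (33.3%, beside 23.3% of all probe sets). Over all 25000 probe sets, the fits without 1 array gave 40 to 2914 calls.

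**Figure D1:**
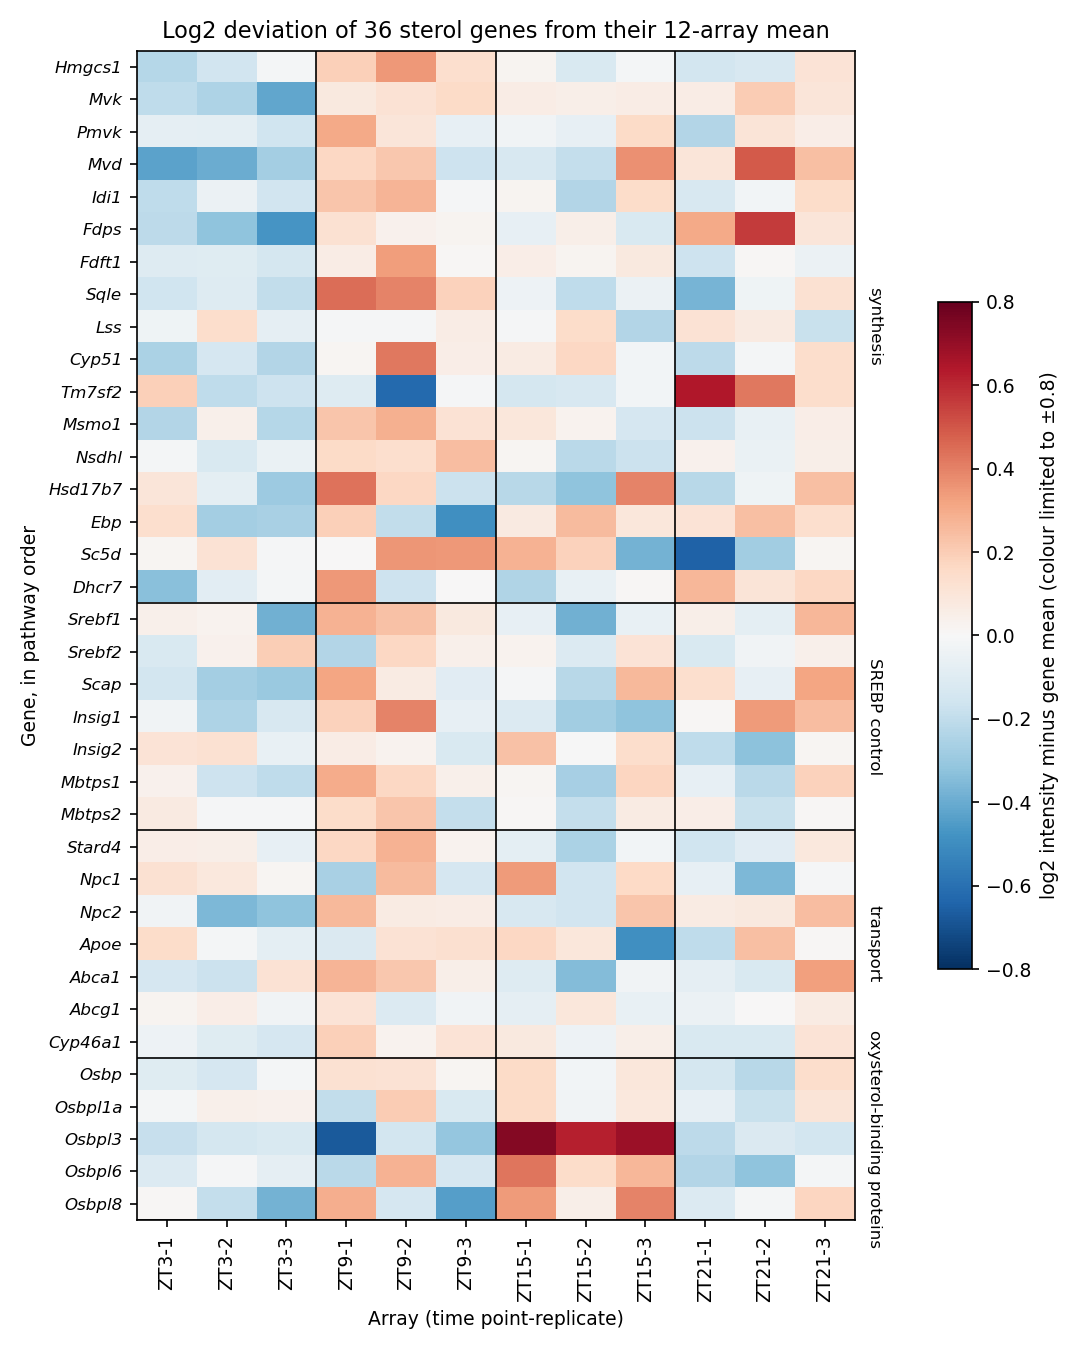
Log2 intensity of each of the 36 sterol genes, in rows by pathway step, on each of the 12 arrays, in columns by time point, as the deviation from the mean of that gene (red above, blue below, colour limited to ±0.8). Synthesis genes are mostly blue at ZT3 and red at ZT9, and Osbpl3 is dark red on the 3 arrays of ZT15.

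The synthesis genes were low in the early light phase. Of the 17 measured, 12 had their lowest mean at ZT3 (70.6%, beside 38.5% of all probe sets) and 11 had their highest at ZT9 (64.7%, beside 28.9%), while the other 6 were highest at ZT21. From ZT3 to ZT9 the difference was above 0 for 15 of the 17, with a median of 0.25, beside 62.5% and a median of 0.06 over all probe sets. The mean deviation of the 17 genes lay between −0.19 and −0.12 on the ZT3 arrays and between 0.03 and 0.17 on the ZT9 arrays, so these arrays did not overlap. The mean intensity over an array differed as well. It was 344 to 356 at ZT3, and 398, 394 and 347 on ZT9 replicates 1 to 3, where the 17 genes deviated by 0.17, 0.13 and 0.03. ZT15 replicate 3 and ZT21 replicate 3 were also bright (392 and 395), with deviations of 0.01 and 0.09. The part of array brightness in the step was not tested. Without the 3 arrays of high β-actin signal 9 of the 17 were lowest at ZT3, 11 were highest at ZT9, and the median from ZT3 to ZT9 was 0.29. Of all 25000 probe sets 6552 were then lowest at ZT3 and 7927 highest at ZT9, with a median of 0.04.

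**Figure D2:**
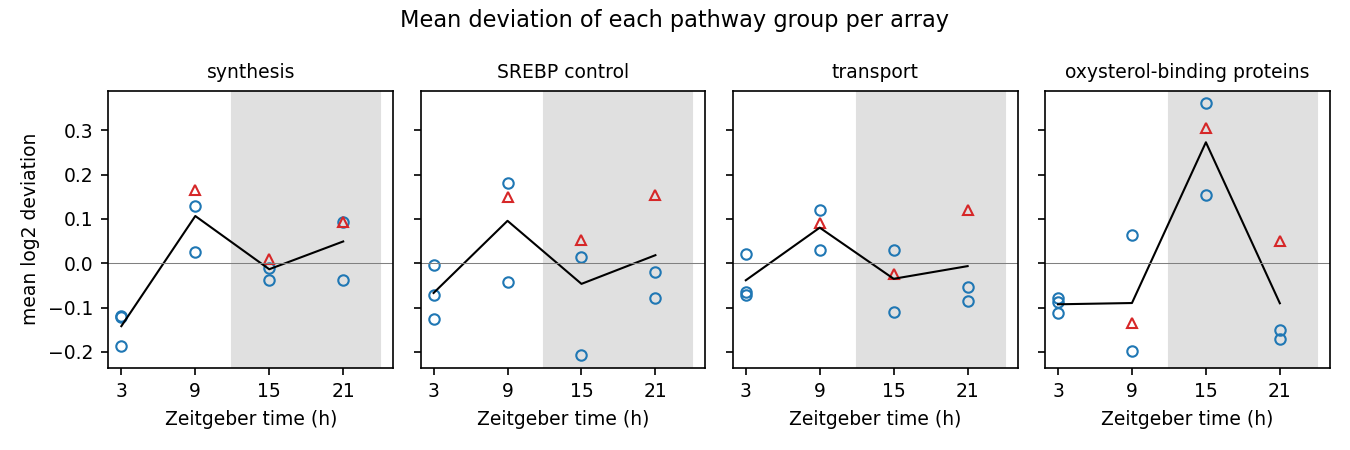
Mean log2 deviation from the gene means over the genes of each pathway group, per array, against Zeitgeber time in hours (grey, dark phase). Triangles are the 3 arrays of high β-actin signal, circles the other 9 and lines join the means of 3 mice, with ZT3 below every other synthesis point and ZT15 above every other point of the oxysterol-binding proteins. By the median over the same genes both overlapped. For the oxysterol-binding proteins ZT15 replicate 2 (0.05) lay below ZT9 replicate 2 (0.11) and ZT21 replicate 3 (0.10). For synthesis ZT21 replicate 1 (−0.13) lay below ZT3 replicate 2 (−0.10).

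None of the 36 genes passed the threshold for the step from ZT3 to ZT9 alone. Called higher at ZT9 were 0 of the 36, beside 0.076% of all probe sets, and called lower were 0, beside 0.016%, by limma at an adjusted p of 0.20. Before adjustment 14 of the 36 (38.9%) were higher at a p under 0.05, beside 8.84% of all probe sets, and 0 were lower. Every ZT9 mouse read above every ZT3 mouse for 17 of the 36 genes (47.2%), beside 12.9% of all probe sets. They were Hmgcs1, Mvk, Pmvk, Mvd, Idi1, Fdps, Fdft1, Sqle, Cyp51, Msmo1, Nsdhl, Srebf1, Scap, Mbtps1, Npc2, Cyp46a1 and Osbp, of which 11 are synthesis genes. With ZT9 replicate 1 set aside, the count was 18 of 36, beside 16.9% of all probe sets. When ZT9 replicate 3, the array with the highest choroid plexus markers, was left out of the fit, 12 of the 36 were called, beside 3684 of the 25000 probe sets, and the median over the synthesis genes was 0.38. The part of choroid plexus tissue in this was not tested. Without ZT15 replicate 3, 1 was called.

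At the head of the pathway stands Hmgcs1, the cytosolic HMG-CoA synthase. It read 12.10, 12.17 and 12.31 at ZT3, 12.52, 12.68 and 12.47 at ZT9, 12.35, 12.20 and 12.31 at ZT15, and 12.18, 12.20 and 12.44 at ZT21. All 3 mice at ZT9 lay above the other 9. The step from ZT3 to ZT9 was 0.36 (standard error 0.10), at an adjusted p of 0.368 by limma, and the F-test gave 0.287. The other 3 tested probe sets of Hmgcs1 were highest at ZT9 as well, with ranges of 0.31, 0.42 and 0.63.

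Mvk, the mevalonate kinase, gave 6.39, 6.35 and 6.18 at ZT3, 6.67, 6.71 and 6.75 at ZT9, 6.66, 6.64 and 6.66 at ZT15, and 6.66, 6.80 and 6.69 at ZT21. The ZT3 mice were the lowest 3 of the 12, and the other 9 lay close together. Mvk was lower at ZT3 than at ZT21 by 0.41 (standard error 0.08) or 1.33-fold (limma, adjusted p = 0.121), and its F-test adjusted p was 0.155. A second, dimmer Mvk probe set did not follow it, with a range of 0.25, its low point at ZT15 and an adjusted p of 0.423.

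Mvd, which makes isopentenyl diphosphate by decarboxylation, read 5.33, 5.36 and 5.49 at ZT3, 5.92, 5.98 and 5.59 at ZT9, 5.63, 5.57 and 6.13 at ZT15, and 5.85, 6.25 and 6.00 at ZT21. The ZT3 values were all below the other 9. The difference from ZT21 to ZT3 was −0.64 (standard error 0.16) (1.56-fold, limma adjusted p = 0.152). The second Mvd probe set had its low at ZT3 and its high at ZT21 too, with a range of 0.66.

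Fdps, the farnesyl diphosphate synthase at the branch to sterols and prenylated proteins, had values of 8.92, 8.81 and 8.66 at ZT3, 9.26, 9.17 and 9.16 at ZT9, 9.07, 9.18 and 9.01 at ZT15, and 9.44, 9.69 and 9.23 at ZT21. The mice at ZT3 were again the lowest, and 2 of the 3 at ZT21 the highest. Fdps was lower at ZT3 than at ZT21 by 0.65 (standard error 0.12) or 1.57-fold (limma, adjusted p = 0.104), with an F-test adjusted p of 0.163 and of 0.0353 without the 3 arrays of high β-actin signal.

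**Figure D3:**
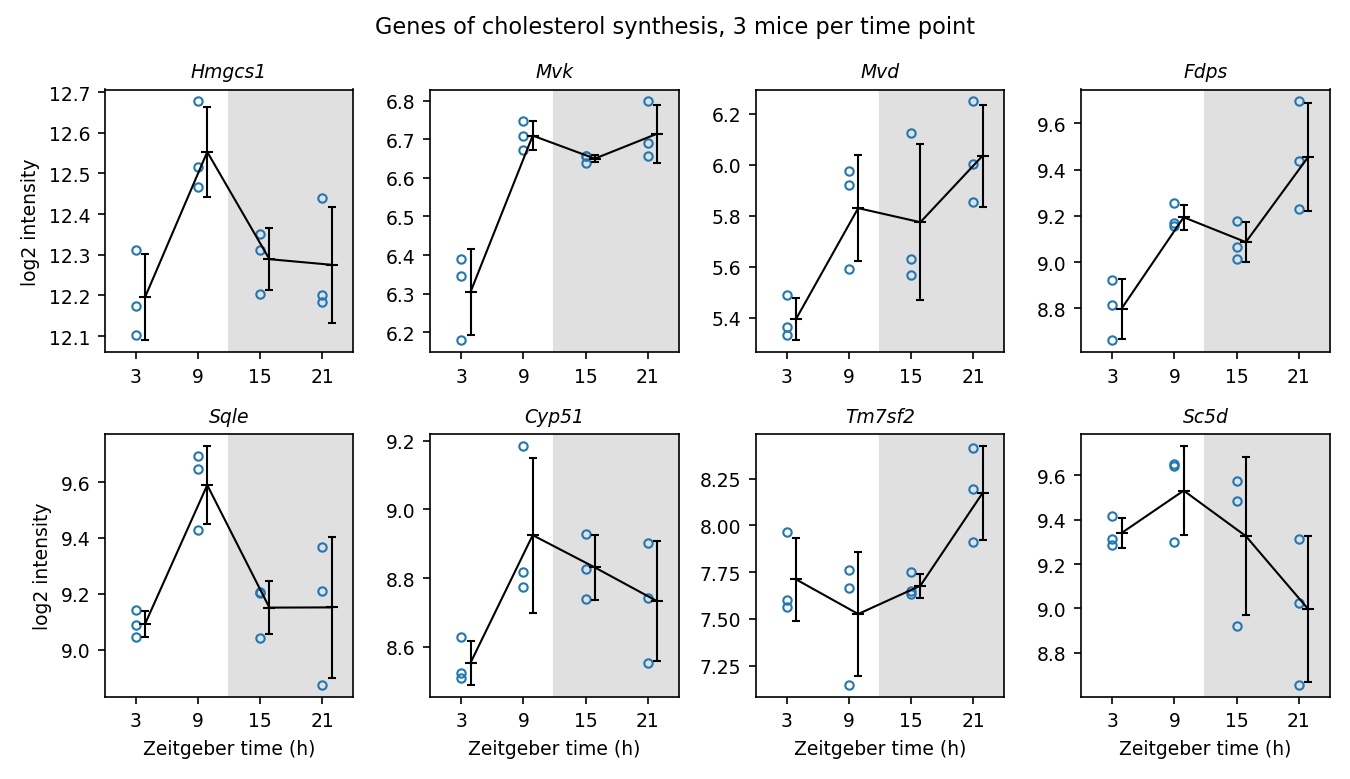
Log2 intensity against Zeitgeber time in hours for 8 synthesis genes (grey, dark phase). Circles are single mice, and the black line to their right joins the means with SD of 3 mice, with Hmgcs1 and Sqle highest at ZT9 and Mvd, Fdps and Tm7sf2 highest at ZT21.

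Sqle, the squalene epoxidase and a control point of the pathway, read 9.09, 9.14 and 9.05 at ZT3, 9.69, 9.65 and 9.43 at ZT9, 9.21, 9.04 and 9.20 at ZT15, and 8.87, 9.21 and 9.37 at ZT21. The 3 mice at ZT9 stood above all others. Sqle had the largest step from ZT3 to ZT9 of the 36 genes, 0.50 (standard error 0.13) (limma, adjusted p = 0.311), and a step of −0.44 (standard error 0.13) from ZT9 to ZT15 (adjusted p = 0.361). Its F-test gave an adjusted p of 0.23, and of 0.118 without the 3 arrays of high β-actin signal.

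Tm7sf2, a sterol reductase of the later steps, had its low at ZT9. Its values were 7.97, 7.57 and 7.60 at ZT3, 7.67, 7.15 and 7.76 at ZT9, 7.63, 7.65 and 7.75 at ZT15, and 8.41, 8.19 and 7.91 at ZT21. The ZT21 mice were the highest apart from 1 mouse at ZT3, and ZT9 replicate 2 was the lowest. Tm7sf2 was lower at ZT3 than at ZT21 by 0.46 (standard error 0.18) (limma, adjusted p = 0.199), just inside the threshold. Sc5d, the desaturase near the end of the pathway, was lowest at ZT21 and highest at ZT9, with a range of 0.53, an adjusted p of 0.383, and 0.0353 without the 3 arrays of high β-actin signal.

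The remaining synthesis genes had smaller or less even profiles. Pmvk, Idi1, Fdft1, Cyp51, Msmo1 and Hsd17b7 had their low at ZT3 and their high at ZT9, with ranges from 0.21 to 0.37. Nsdhl was highest at ZT9 and lowest at ZT15 (range 0.30), Dhcr7 was lowest at ZT3 and highest at ZT21 (range 0.33), and Ebp was lowest at ZT9 (range 0.33). Lss was nearly level, at 0.04, but a second Lss probe set had a range of 0.90 with its low at ZT3 and its high at ZT9 (adjusted p = 0.286). Cyp51, Idi1 and Fdft1 likewise had a second, dimmer probe set with a larger range than the first (0.76, 0.59 and 0.54), and each was lowest at ZT3. Hsd17b7 and Msmo1 also had a dimmer probe set with a larger range (0.65 and 0.50), but each was lowest at ZT21. A dimmer Sc5d probe set was highest at ZT15. Of the 14 further probe sets of synthesis genes 7 shared the high of the first and 6 its low. Of these 14, 11 were higher at ZT9 than at ZT3, 3 were highest at ZT3 and none passed the F-test at 0.20.

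From ZT21 to ZT3, across lights on, 5 of the 36 sterol genes were called lower, namely Mvk, Mvd, Fdps, Tm7sf2 and Npc2. That is 13.9%, beside 7.1% of all probe sets, while 0 were called higher, beside 4.37%. Of these 5, 4 are synthesis genes. The β-actin 3′ minus 5′ signal differed over this step as well, from 0.66 to 0.70 on the ZT3 arrays and from 0.79 to 0.88 on the ZT21 arrays, and its part in these calls was not tested. Markers of other cell types differed over the same step. Of the 9 microglia markers 8 were lower at ZT3 than at ZT21, with a median of −0.24, and C1qb and Tyrobp were called (limma, adjusted p of 0.174 and 0.176). The mean over the 9 ran from 8.40 to 8.60 on the ZT3 arrays and from 8.70 to 8.78 on the ZT21 arrays. Of 8 markers of cortical neurons Neurod6 was called lower by −0.43 and Camk2a higher by 0.45 (adjusted p of 0.182 and 0.193), and the part of these cell types was not tested either. All 5 calls held without the 3 arrays of high β-actin signal, where 9 of the 36 passed in either direction. Over all probe sets this step gave 2868 calls with all arrays. It gave 95 to 11577 over the alternatives in processing, which include that fit, and 4 to 5068 with single arrays left out. The counts of sterol genes called in such fits are therefore no measure of the sterol genes alone. None of the 36 passed when ZT3 replicate 2, ZT3 replicate 3, ZT21 replicate 1 or ZT21 replicate 2 was left out, 3 passed without ZT15 replicate 1 or 2, and 9 without ZT9 replicate 1.

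**Figure D4:**
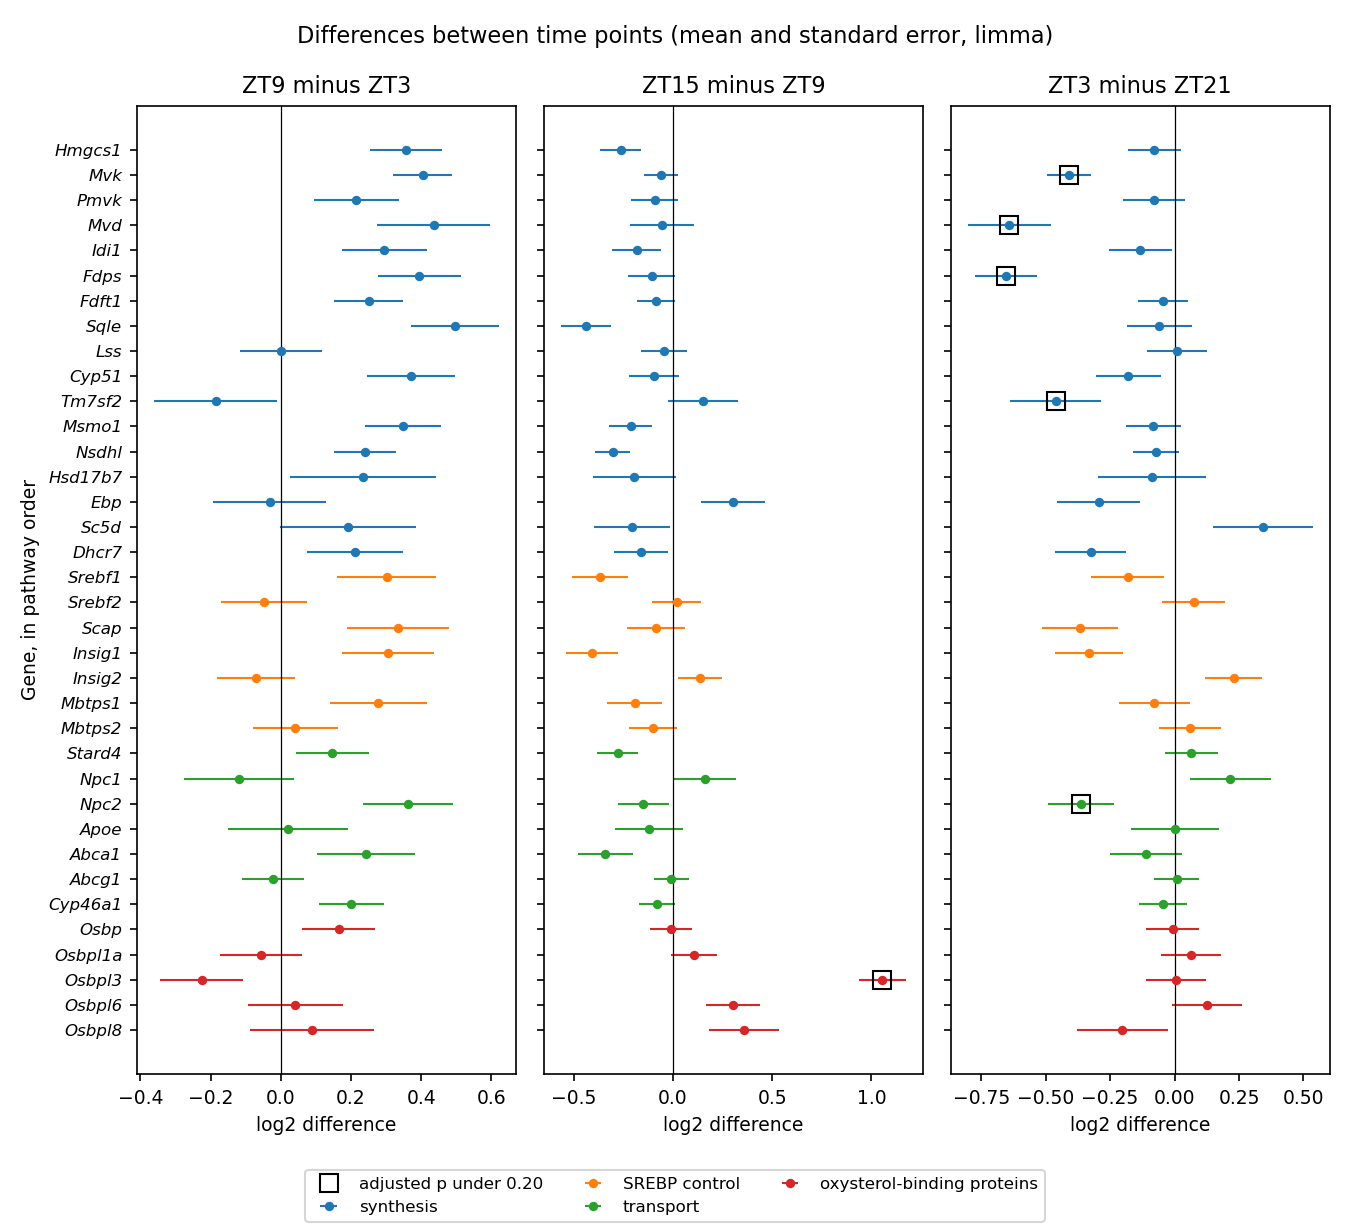
Log2 difference of each of the 36 genes for ZT9 minus ZT3, ZT15 minus ZT9 and ZT3 minus ZT21, with the standard error from limma, coloured by pathway group. Squares mark an adjusted p under 0.20, which Osbpl3 had in the middle panel and Mvk, Mvd, Fdps, Tm7sf2 and Npc2 in the right one.

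Of the 7 genes that control SREBP, 0 passed the F-test. The median step from ZT3 to ZT9 was 0.28, with 5 of the 7 higher at ZT9, beside 0.06 and 62.5% over all probe sets. That median was 0.076 with the mean of all probe sets of a gene, 0.16 with quantile normalization and 0.16 without ZT3 replicate 3. Insig1, a target of SREBP that retains SCAP in the endoplasmic reticulum, gave 8.51, 8.29 and 8.41 at ZT3, 8.72, 8.93 and 8.47 at ZT9, 8.43, 8.26 and 8.21 at ZT15, and 8.55, 8.87 and 8.78 at ZT21. Its mice were lower at ZT15 than at ZT9 or ZT21 without overlap. The steps were −0.41 (standard error 0.13) from ZT9 to ZT15 and 0.44 (standard error 0.13) from ZT15 to ZT21, with adjusted p of 0.452 and 0.371 by limma, and 0.261 in the F-test.

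Insig2, its relative that is less tied to SREBP, read 10.05, 10.06 and 9.88 at ZT3, 9.99, 9.96 and 9.82 at ZT9, 10.17, 9.93 and 10.08 at ZT15, and 9.74, 9.61 and 9.95 at ZT21. The groups overlapped except that 2 of the ZT21 mice were lowest of all. Its high was at ZT15 and its low at ZT21, with a range of 0.30 and an adjusted p of 0.382. The 2 further probe sets of Insig2 were highest at ZT15 and at ZT3.

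Srebf1, whose products favour genes of fatty acid synthesis, gave 8.51, 8.50 and 8.09 at ZT3, 8.75, 8.71 and 8.55 at ZT9, 8.40, 8.09 and 8.41 at ZT15, and 8.52, 8.39 and 8.74 at ZT21. Its ZT9 mice lay above those of ZT3 and of ZT15, and overlapped those of ZT21. The range was 0.37, from ZT9 down to ZT15, with an adjusted p of 0.371.

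Srebf2, whose product drives the cholesterol genes, read 9.74, 9.90 and 10.06 at ZT3, 9.63, 10.03 and 9.91 at ZT9, 9.89, 9.75 and 9.98 at ZT15, and 9.74, 9.84 and 9.90 at ZT21. The 4 time points overlapped throughout, with a range of 0.07 (standard error 0.12). Scap was lowest at ZT3 and highest at ZT21 (range 0.37, adjusted p = 0.387). The 2 proteases differed in range, 0.28 for Mbtps1 and 0.10 for Mbtps2, and both were highest at ZT9 with adjusted p of 0.542 and 0.889.

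Among the 7 transport genes, 0 passed the F-test and 5 were highest at ZT9 (71.4%, beside 28.9% of all probe sets). Of the 6 further probe sets of these genes 4 were highest at ZT3, and 2 were higher at ZT9 than at ZT3. Npc2, which binds the cholesterol set free in lysosomes, gave 10.14, 9.81 and 9.85 at ZT3, 10.43, 10.23 and 10.23 at ZT9, 10.04, 10.01 and 10.39 at ZT15, and 10.23, 10.24 and 10.41 at ZT21. Its 3 ZT3 mice were below all those of ZT9 and ZT21. It was lower at ZT3 than at ZT21 by 0.36 (standard error 0.13) or 1.29-fold (limma, adjusted p = 0.181), with an F-test adjusted p of 0.323. Npc1, the lysosomal membrane protein that takes cholesterol from it, was highest at ZT15 and lowest at ZT21, with a range of 0.26 and an adjusted p of 0.611.

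Stard4, a small sterol carrier of the cytosol, read 8.96, 8.96 and 8.84 at ZT3, 9.08, 9.19 and 8.94 at ZT9, 8.83, 8.65 and 8.88 at ZT15, and 8.75, 8.82 and 8.99 at ZT21. The ZT9 mice were above those of ZT15, and the other groups overlapped. Its step from ZT9 to ZT15 was −0.28 (standard error 0.10) (limma, adjusted p = 0.578), with 0.385 in the F-test. A second Stard4 probe set ran alike, with a range of 0.32, while another was highest at ZT3 and lowest at ZT21, with a range of 0.75 (adjusted p = 0.344).

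Abca1, the pump that loads cholesterol onto ApoE, had values of 8.92, 8.88 and 9.17 at ZT3, 9.33, 9.27 and 9.10 at ZT9, 8.95, 8.71 and 9.02 at ZT15, and 8.98, 8.93 and 9.38 at ZT21. ZT9 lay above ZT15 without overlap, and the step was −0.34 (standard error 0.14) (limma, adjusted p = 0.641). The 2 further probe sets of Abca1 were highest at ZT3, and the larger range of these was 1.13 (standard error 0.30, F-test adjusted p = 0.275), so the probe sets of Abca1 disagree.

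Apoe, the main apolipoprotein of the brain, made largely by astrocytes, read 12.77, 12.60 and 12.54 at ZT3, 12.50, 12.73 and 12.74 at ZT9, 12.78, 12.71 and 12.13 at ZT15, and 12.42, 12.86 and 12.63 at ZT21. Its groups overlapped, with ZT15 replicate 3 lowest by far and a range of 0.12 (standard error 0.17). Abcg1, the other sterol exporter listed, was the flattest of the 36, with a range of 0.03 (standard error 0.09).

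Cyp46a1, the neuronal hydroxylase that turns cholesterol into an oxysterol able to leave the brain, gave 10.90, 10.84 and 10.81 at ZT3, 11.14, 10.97 and 11.05 at ZT9, 11.02, 10.90 and 10.99 at ZT15, and 10.82, 10.82 and 11.05 at ZT21. The ZT9 mice were above those of ZT3, by 0.20 (standard error 0.09) (limma, adjusted p = 0.433), and overlapped the rest.

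Among the 5 oxysterol-binding proteins chosen, most were highest later, in the early dark phase. The high was at ZT15 for 4 of the 5, namely Osbpl1a, Osbpl3, Osbpl6 and Osbpl8 (80%, beside 23.9% of all probe sets), and from ZT15 to ZT21 the difference was below 0 for all 5, with a median of −0.25. The median step from ZT9 to ZT15 was 0.30, beside −0.01 over all probe sets, against −0.11 for the synthesis genes. Of the 6 other oxysterol-binding proteins tested 2 (Osbpl7 and Osbpl11) were highest at ZT15 and their median step from ZT9 to ZT15 was −0.0015. Without the 3 arrays of high β-actin signal, all 5 were highest at ZT15 and the median step was 0.21. Of all 25000 probe sets 5386 were then highest at ZT15, and the median step was −0.01. With all arrays Osbpl1a had a range of 0.12 (standard error 0.12), and its second probe set was highest at ZT3 (range 0.35).

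Osbpl3 (ORP3), which acts where the endoplasmic reticulum meets the plasma membrane, had the largest range of the 36 genes. It read 7.91, 7.95 and 7.97 at ZT3, 7.42, 7.94 and 7.78 at ZT9, 8.82, 8.71 and 8.77 at ZT15, and 7.88, 7.97 and 7.94 at ZT21. The 3 mice at ZT15 stood together far above the other 9, and the 3 at ZT21 were back among those of ZT3. Osbpl3 rose by 1.06 (standard error 0.12) or 2.08-fold from ZT9 to ZT15 (limma, adjusted p = 0.00604). It fell by 0.84 (standard error 0.12) or 1.79-fold from ZT15 to ZT21 (limma, adjusted p = 0.0805).

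Osbpl3 was called in the F-test at an adjusted p of 0.0149 with all arrays and 0.0209 without the 3 of high β-actin signal. A second, dimmer probe set of Osbpl3 read 5.31, 5.04 and 5.10 at ZT3, 5.19, 5.68 and 5.28 at ZT9, 6.58, 6.03 and 6.55 at ZT15, and 5.26, 5.48 and 5.87 at ZT21. Its 3 mice at ZT15 were also the highest, and it was called in the F-test with a range of 1.24 (adjusted p = 0.0773). The fall to ZT21 lost its call when ZT15 replicate 2, ZT21 replicate 1, ZT21 replicate 2 or ZT3 replicate 2 was left out, with adjusted p of 0.203 to 0.379. The upstream window of Osbpl3 holds 1 CCAAT and no CACGTG.

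In that step from ZT9 to ZT15, Osbpl3 was the 1 of 36 called higher (2.78%), beside 0.452% of all probe sets, and 0 were called lower, beside 0.128%. Before adjustment 7 of the 36 (19.4%) were lower at a p under 0.05, beside 3.43% of all probe sets. From ZT15 to ZT21, Osbpl3 was the 1 called lower, beside 0.124%, and 0 were called higher, beside 0.08%. When ZT21 replicate 3 was left out, 5 of the 36 passed in either direction. The shares given are of the fit with all arrays, where 51 probe sets passed, against 3 to 1878 with single arrays left out. In the mean of the dark against the mean of the light, Osbpl3 was again the 1 called higher, by 0.52 (standard error 0.08, limma adjusted p = 0.049), beside 1.66% of all probe sets, and 0 were called lower, beside 0.672%. In either direction, 8 of the 36 passed without ZT9 replicate 1. Without ZT3 replicate 1 or ZT21 replicate 3 the count was 3, and without ZT15 replicate 1 it was 2. Over all probe sets dark against light gave 584 calls with all arrays, and 50 to 5303 with single arrays left out. These counts of sterol genes are therefore no measure of the sterol genes alone.

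**Figure D5:**
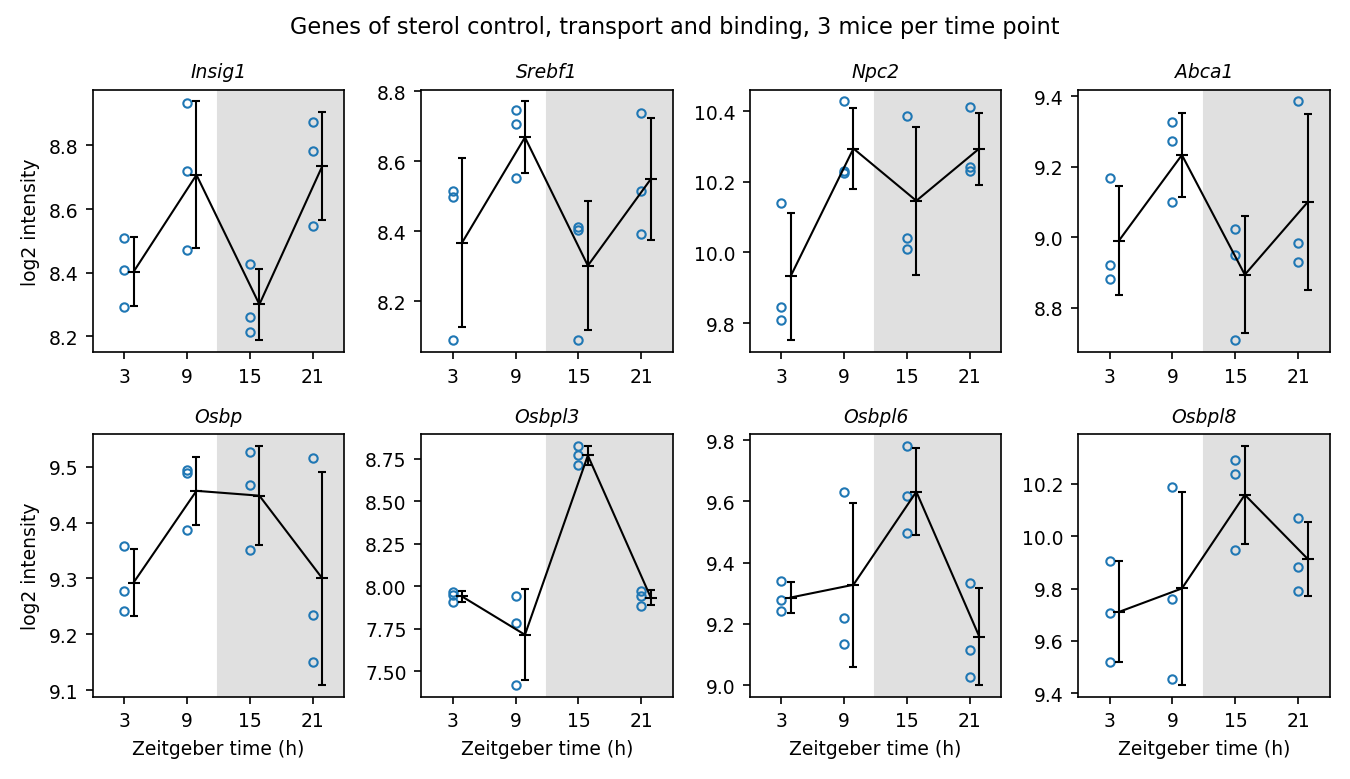
Log2 intensity against Zeitgeber time in hours for genes of sterol control, transport and oxysterol binding (grey, dark phase). Circles are single mice and the black line to their right joins the means with SD of 3 mice, with Insig1 low at ZT15 and Osbpl3 high at ZT15.

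Osbpl6, a relative of Osbpl3, gave 9.24, 9.34 and 9.28 at ZT3, 9.13, 9.63 and 9.22 at ZT9, 9.78, 9.50 and 9.62 at ZT15, and 9.12, 9.03 and 9.33 at ZT21. Its ZT15 mice were above those of ZT3 and ZT21 but overlapped ZT9 replicate 2. The difference from ZT15 to ZT21 was −0.47 (standard error 0.14) (limma, adjusted p = 0.357), with an F-test adjusted p of 0.296 and of 0.142 without the 3 arrays of high β-actin signal. Of its 3 further probe sets 2 were highest at ZT15.

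Osbpl8 (ORP8), which trades phosphatidylserine for phosphoinositides at contacts with the plasma membrane, read 9.91, 9.71 and 9.52 at ZT3, 10.19, 9.76 and 9.45 at ZT9, 10.24, 9.95 and 10.29 at ZT15, and 9.79, 9.88 and 10.07 at ZT21. Mice of the same time point were far apart, and the range of 0.45 had a standard error of 0.18 and an adjusted p of 0.402. Osbp itself, which moves cholesterol to the Golgi, had a range of 0.16, and Osbpl1a one of 0.12.

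Other genes of the same pathways were taken from a wider list. Of its 19 tested genes of transport and turnover 1 was called in the F-test, beside 1.86% of all probe sets. It was Gramd1b, which moves cholesterol from the plasma membrane to the endoplasmic reticulum. Gramd1b read 9.34, 9.39 and 9.23 at ZT3, 9.67, 9.58 and 9.41 at ZT9, 9.92, 9.80 and 10.32 at ZT15, and 9.78, 9.56 and 9.81 at ZT21. Its mean was highest at ZT15, where 1 mouse lay just under 1 of ZT21, and its ZT3 mice were the lowest, with a range of 0.69 (standard error 0.14, limma adjusted p = 0.179), and its second probe set was highest at ZT15 too. In ZT3 minus ZT21, 5 of these 19 genes were called, all lower at ZT3, namely Gramd1a, Gramd1b, Abca3, Clu and Vldlr, with differences from −0.74 to −0.25 and adjusted p of 0.152 to 0.199 by limma. Of all probe sets 7.1% were called lower in this contrast and 4.37% higher. Gramd1a, of the same family, had a range of 0.74 (adjusted p = 0.274), Cyp7b1, an oxysterol hydroxylase, one of 0.42 (adjusted p = 0.311), and Lrp8, an ApoE receptor of neurons, one of 0.45 (adjusted p = 0.312).

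The other genes of sterol sensing gave 0 calls among 11 in the F-test. In ZT3 minus ZT21 Nfya was the 1 called, higher at ZT3 by 0.39 (limma, adjusted p = 0.156), beside 4.37% of all probe sets. The 3 of the 11 with the smallest F-test p were Nfya, a subunit of NF-Y, with its high at ZT3 (range 0.39, adjusted p = 0.265), Ubxn8 (range 0.38, adjusted p = 0.315) and Nr1d1, the clock repressor REV-ERBα, with its high at ZT9 (range 1.00, adjusted p = 0.317). The 12 SREBP targets of fatty acid synthesis gave 0 calls in the F-test too. From ZT3 to ZT9 the difference was above 0 for all 12, with a median of 0.16 and 0 calls. In ZT3 minus ZT21, 2 of the 12 were called lower, beside 7.1% of all probe sets. They were Acss2 by −0.57 (limma, adjusted p = 0.154) and Acaca by −0.36 (adjusted p = 0.191). In the F-test Acss2, Elovl6 and Pcyt1a led the 12, with ranges of 0.57, 0.36 and 0.27 and adjusted p of 0.27, 0.319 and 0.347.

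Of the 6 further oxysterol-binding proteins measured, 0 were called, and Osbpl2, Osbpl11 and Osbpl10 had the smallest p (adjusted 0.31, 0.354 and 0.379, ranges 0.26, 0.47 and 0.31). Of these 3, Osbpl11 was highest at ZT15. The 7 other genes of synthesis and isoprenoids gave 0 calls, with Ggps1, Lbr and Fdx1 at adjusted p of 0.459, 0.485 and 0.558.

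Astrocytes and myelin hold much of the brain's sterol synthesis, and their markers were read beside these genes. From ZT3 to ZT9 the median over the 10 astrocyte markers was 0.15, with 8 of 10 higher, and over the 9 myelin markers 0.07, with 6 of 9 higher, beside 0.25 for the synthesis genes. None of these 19 was called in the F-test, and none had an unadjusted p under 0.05. The mean over the astrocyte markers ran from 10.48 to 10.62 on the ZT3 arrays and from 10.47 to 10.76 on the ZT9 arrays, and over the myelin markers from 11.20 to 11.23 and from 11.05 to 11.51. Ttr of the choroid plexus differed by 2.17 over this step, with the mean over 6 such markers from 4.30 to 4.50 on the ZT3 arrays and from 4.47 to 6.88 on the ZT9 arrays. Striatal markers had a median of 0.42 over this step with all 6 higher at ZT9, from 7.61 to 7.99 at ZT3 and from 7.81 to 8.38 at ZT9, and the part of dissection in the step was not tested. Of all the markers tested Cldn5 of the endothelium was the 1 called in the F-test, with a range of 1.06 (limma adjusted p = 0.0627), highest at ZT21 and lowest at ZT9.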

How the data were processed

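RNA of single mice was hybridised to 12 Affymetrix Mouse430_v2 arrays, and the deposited values are intensities per probe set that the authors made with GCRMA in GeneSpring. They were taken as log2, control probe sets were left out, and the 25000 probe sets with the highest mean were tested, close to the number the authors kept by MAS 5.0 detection calls. The 4 groups entered 1 linear model of limma (version 3.58.1, under R 4.3.3), which gave a moderated F-test and two-sided contrasts over all 12 arrays, with p-values adjusted by Benjamini and Hochberg over all 25000 probe sets and called under 0.20. Gene symbols come from the platform annotation in GEO, which can be old, and 34945 of 45037 probe sets carry 1 symbol. Each gene is read by its brightest probe set that carries no other symbol. The members and lists were chosen with earlier results of these data known, so no test over a list was made. All values on 12 arrays are given for genes called in the F-test, the 3 members of each pathway step with the smallest F-test p and 8 genes set by role, and also for Mvd and Tm7sf2, chosen after their values were seen. In data simulated with the spread of the 25000 probe sets, the F-test found 31 of 100 changes of 0.5 and 77 of 100 changes of 1 (log2), with 19 false calls. The number of arrays limits the precision. Replicates are separate mice by the methods of the study, and the sources used here name neither a scan date nor a batch. Alternatives were quantile normalization, median centring, other filters, a trended robust prior, array weights, a replicate block, single arrays left out and means over probe sets, and leaving out the 3 arrays of high β-actin signal was added after seeing the data. Python 3.11.15 with numpy 2.4.6 and pandas 2.3.3 served for the summaries, and matplotlib 3.10.9 for the plots.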

Additional observations from a re-analysis of the deposited data

How the results depend on the processing

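Osbpl3 kept its F-test call and its call from ZT9 to ZT15 under all 9 alternatives and all 12 fits without 1 array, and no called difference of a named gene changed sign. Mvk and Mvd are not among the 15000 brightest probe sets. Mvk lost its F-test call with median centring (adjusted p = 0.206), means per gene (0.261) and a replicate block (0.314), and Fdps lost its call with no filter (0.228) and a block (0.236), all by limma. The number of the 36 sterol genes called by the F-test (3) became 5 with the 15000 brightest probe sets, 8 with quantile normalization, 12 without the 3 arrays of high β-actin signal, 27 with array weights, where 14822 of the 25000 probe sets passed (466 in the report, 97 with a block, 40 to 2914 with single arrays left out), and 1 to 9 with single arrays left out. Dark minus light (1) gave 3 with the brightest 15000, 3 with median centring, 6 with quantile normalization, 8 without the 3 arrays, 10 with weights and 1 to 8 with single arrays left out. ZT9 minus ZT3 (0) gave 18 with weights, 1 with quantile normalization, 1 with no filter, 1 with means per gene and 0 to 12 with single arrays left out. ZT15 minus ZT9 (1) gave 2 with median centring, 3 with quantile normalization and 5 with weights. ZT21 minus ZT15 (1) gave 8 without the 3 arrays, 12 with weights and 0 to 5 with single arrays left out. ZT3 minus ZT21 (5) gave 9 without the 3 arrays, 13 with weights, 2 with no filter and 0 to 9 with single arrays left out. Over all probe sets the alternatives gave 94 to 7980 calls for dark minus light (584), 16 to 6967 for ZT9 minus ZT3 (23), 71 to 698 for ZT15 minus ZT9 (145), 1 to 7620 for ZT21 minus ZT15 (51) and 95 to 11577 for ZT3 minus ZT21 (2868). In the same order, single arrays left out gave 50 to 5303, 7 to 3684, 72 to 150, 3 to 1878 and 4 to 5068. The causes were not tested.

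Over the synthesis genes the median of ZT9 minus ZT3 (0.25) was 0.17 with median centring, 0.17 with quantile normalization and 0.24 to 0.38 with single arrays left out, that of ZT15 minus ZT9 (−0.11) was −0.20 with weights and −0.17 to −0.078, that of ZT21 minus ZT15 (0.02) was −0.055 to 0.084, that of ZT3 minus ZT21 (−0.09) was −0.026 with weights, −0.26 with means per gene and −0.20 to −0.058, and that of dark minus light (−0.02) was −0.078 with weights. Over the SREBP control genes ZT9 minus ZT3 (0.28) was 0.076 with means per gene, 0.16 with quantile normalization and 0.16 to 0.35 with single arrays left out, and ZT15 minus ZT9 (−0.10) was −0.22 to −0.024. Over the transport genes ZT9 minus ZT3 (0.15) was 0.064 with median centring, 0.021 with means per gene and 0.036 with quantile normalization, ZT15 minus ZT9 (−0.12) was −0.036 with weights, ZT21 minus ZT15 (0.06) was −0.03 without the 3 arrays and −0.019 with weights, and ZT3 minus ZT21 (0.00) was −0.084 to 0.034 with single arrays left out. Over the oxysterol-binding proteins ZT15 minus ZT9 (0.30) was 0.15 with weights, 0.17 with means per gene and 0.18 to 0.37 with single arrays left out, ZT9 minus ZT3 (0.04) was −0.074 with quantile normalization and −0.11 to 0.096, and dark minus light (0.09) was −0.021 with weights.

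With the replicate number as a block the F-test called 1 of the 36 genes (Osbpl3), ZT21 minus ZT15 called 0 and ZT3 minus ZT21 called 1 (Fdps). The numbers do not pair the mice: deviations of same-numbered arrays correlated between −0.50 and 0.48 (median −0.09 over 18 pairs). With 3 mice per time point small changes can be missed. In data simulated without shifts shared over an array, 31 of 100 changes of 0.5 were found.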
